A study of Mus musculus with 4 samples.

Results

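The genes described here encode ion channels that pass calcium, sodium or chloride, together with the HCN channels (which pass sodium and potassium when a cell is hyperpolarized) and the calcium release channels of the endoplasmic reticulum. They were chosen by gene symbol, with earlier results of these data known. The symbols begin with Cacn, Clcn or Clic or name a numbered member of the Scn, Hcn, Trpc, Trpm, Trpv, Ryr or Itpr families. Of 8251 genes that the array's annotation names singly, 40 matched, read by 58 probe sets. A further matching probe set is annotated to several genes and was left out. The pattern also takes in Trpc4ap, which encodes a protein that binds a TRP channel and is no channel itself. RNA was measured in 4 samples of mouse hippocampus, 1 Affymetrix array each, and the series title calls them replicates. The labels place all 4 in 1 group with total RNA as the starting material and give no strain, sex, age or treatment, nor whether each sample is another animal. P-values then measure only the spread between these samples, which may be technical, and no comparison of conditions was possible. Samples are called 1 to 4 as names with no order.

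As background, voltage-gated calcium channels open when a neuron is depolarized. Their pore subunit sets the type of current, while auxiliary subunits bring the pore to the membrane and tune its opening. Sodium channels start the action potential, HCN channels set resting excitability and rhythm, and ryanodine and inositol trisphosphate receptors release stored calcium. Most members of the Clcn family analysed here exchange chloride for protons in endosomes and lysosomes.

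Signals are given in normalized array units. Values below 27.7 units, the 25th percentile of all normalized values, were treated as a floor for ranges, since low signals could not be told from background. Of the 40 genes, 23 (57.5%) had a probe set whose mean log2 signal exceeded the array median, a geometric mean of 99.6 units, against 58.6% of all named genes. These 23 genes, each read through its brightest probe set, were tested for spread between samples. Nearest to this limit were Ryr1 with a geometric mean of 138 units inside it and Trpm1 with 84.1 units outside it.

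Promoters of 4 genes are printed to show the sequence context of 3 of the 5 channel genes that spanned at least 2-fold and of a gene never above the floor. RefSeq start sites in mouse assembly GRCm38.p6 were matched for 33 of the 40 genes. Each sequence is the 250 bases before an annotated start, read 5′ to 3′ on the gene's strand, with CG dinucleotides in capitals. Cacna2d1, Trpc1 and Cacng2 spanned at least 2-fold, and Scn7a was below the floor on all 4 arrays. Cacna1a and Ryr3 also spanned at least 2-fold but had no match, and are not printed. Where RefSeq gives a further start upstream, as for Cacna2d1, Trpc1 and Cacng2, the window overlaps the annotated span of the gene.
Cacna2d1 (chr5:15934441-15934690, plus strand): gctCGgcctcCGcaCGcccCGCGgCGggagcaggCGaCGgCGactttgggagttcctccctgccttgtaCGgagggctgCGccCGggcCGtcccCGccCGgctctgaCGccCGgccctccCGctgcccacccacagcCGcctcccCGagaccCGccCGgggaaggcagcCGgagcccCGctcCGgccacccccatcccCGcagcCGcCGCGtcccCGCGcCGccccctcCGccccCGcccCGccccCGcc
Trpc1 (chr9:95750349-95750598, minus strand): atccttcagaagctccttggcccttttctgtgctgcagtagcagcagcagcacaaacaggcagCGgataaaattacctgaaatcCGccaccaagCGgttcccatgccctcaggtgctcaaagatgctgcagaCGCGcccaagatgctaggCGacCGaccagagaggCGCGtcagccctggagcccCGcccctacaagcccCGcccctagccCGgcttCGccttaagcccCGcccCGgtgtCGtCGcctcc
Cacng2 (chr15:78119281-78119530, minus strand): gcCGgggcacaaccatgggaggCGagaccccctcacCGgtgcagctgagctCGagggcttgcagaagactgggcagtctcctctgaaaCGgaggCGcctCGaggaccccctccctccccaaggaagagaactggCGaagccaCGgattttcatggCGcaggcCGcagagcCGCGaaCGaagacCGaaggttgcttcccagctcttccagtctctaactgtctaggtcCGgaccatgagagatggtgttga
Scn7a (chr2:66784911-66785160, minus strand): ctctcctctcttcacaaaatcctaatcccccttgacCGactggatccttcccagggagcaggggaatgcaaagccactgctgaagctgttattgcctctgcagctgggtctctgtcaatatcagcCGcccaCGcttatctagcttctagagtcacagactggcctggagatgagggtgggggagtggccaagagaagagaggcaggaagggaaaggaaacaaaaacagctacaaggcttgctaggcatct
The windows of Cacna2d1, Trpc1 and Cacng2 hold 36, 17 and 16 CG dinucleotides, and that of Scn7a holds 3. A window was called CG-rich when its G and C content exceeded 50% and its CG count was at least 0.6 of that its base composition predicts. By this measure 13 of 20 analysed channel genes with a sequence (65.0%) had a CG-rich window, against 3 of 13 channel genes below the signal limit (23.1%). Among all named genes on the array the shares were 70.9% and 42.2%, and 33.2% over all genes with a RefSeq promoter. Of the analysed channel genes, Trpc4 was the 1 gene of 20 with the letters TATAAA on either strand, against 8.28% of all analysed genes. These matches describe the windows and were not tested.

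Most channel genes spanned less than 2-fold between the 4 samples, and none passed a test that set its variance against that of other genes of like signal. Relative to the SD expected at their signal, the median SD was 1.10 for the 23 genes and 0.92 for all named genes. The SD lay above that expected for 12 of 23 genes (52.2%), against 43.4% of all named genes, a difference that was not tested. The median range of the 23 genes was 0.50 log2 units, a 1.42-fold span, against 0.51 log2 units and 1.42-fold over all 4839 named genes analysed. A 2-fold or wider range was seen for 5 genes (21.7%), Cacna1a, Cacna2d1, Cacng2, Ryr3 and Trpc1, beside 12.9% of all named genes analysed. None of the 23 passed the variance test (limma, one-sided F test against the intensity trend with Benjamini-Hochberg adjustment over 6211 probe sets, lowest adjusted p = 0.894), and 0% of all named genes did. At an unadjusted p under 0.05 the count was also 0 of 23, against 5.19% of all named genes. With fewer samples the number spanning 2-fold was 3 without sample 1 (Cacna1a, Cacna2d1 and Cacng2), 3 without sample 2 (Cacna2d1, Cacng2 and Trpc1), 3 without sample 3 (Cacna1a, Ryr3 and Trpc1) and 2 without sample 4 (Cacna2d1 and Ryr3). No gene spanned 2-fold under every omission. The shares of all named genes were 9.28%, 9.49%, 8.98% and 6.05% in the same order.

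**Figure D1:**
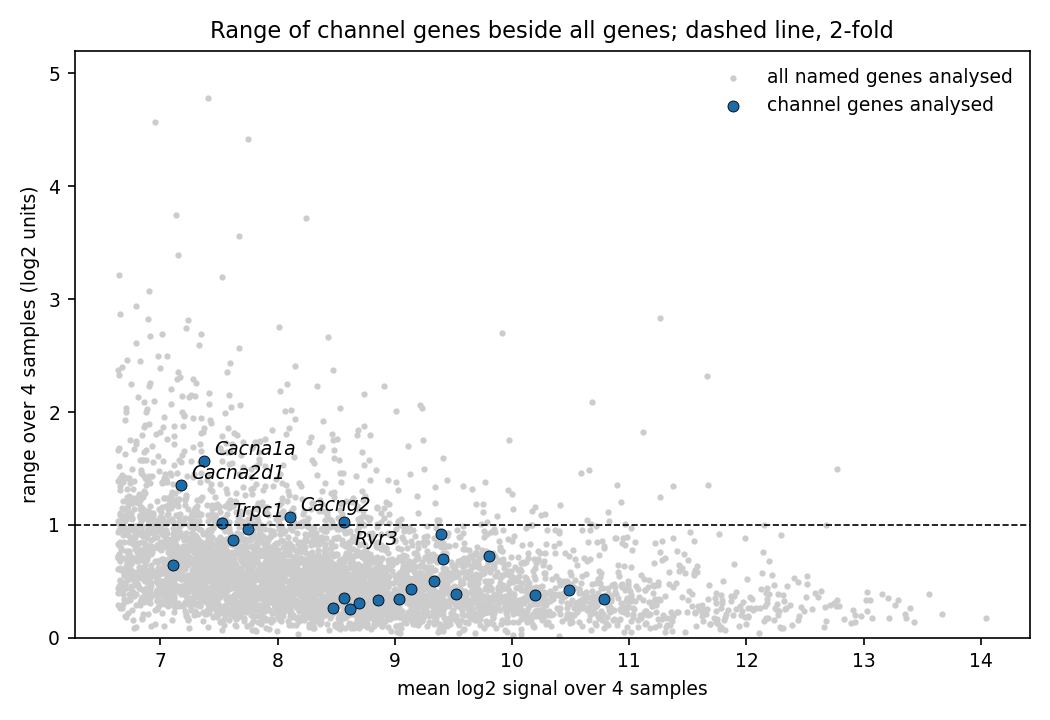
Range over the 4 samples (log2 units) against mean log2 signal, for all 4839 named genes analysed (grey) and the 23 channel genes (blue). The dashed line marks 2-fold; the 5 labelled channel genes lie on or above it, and the other channel genes lie below it among the grey points.

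Among pore subunits of voltage-gated calcium channels, Cacna1a had the widest range of all 23 genes. It encodes the P/Q-type pore that triggers transmitter release at many synapses. Cacna1a gave 177, 292, 149 and 98.5 units from sample 1 to sample 4, on average 179 ± 81.9 (SD, n = 4). Sample 2 was the high one and sample 4 the low one, a 2.96-fold range (adjusted p = 0.894, limma). This range of 1.57 log2 units was 0.86 without sample 2 and 0.96 without sample 4, where Cacna2d1 and Ryr3 had wider ones. The N-type pore gene Cacna1b, which also serves presynaptic release, read 425, 429.6, 362 and 359.7 units, and its 1.19-fold range was the narrowest of the 23. Its samples fell into a higher pair, 1 and 2, and a lower pair, 3 and 4, though which sample was highest or lowest changed with median scaling. The L-type pore gene Cacna1c, whose channel couples activity to gene expression, gave 410.4, 335, 351 and 428 units, with samples 1 and 4 above samples 2 and 3. The range of Cacna1c was 1.28-fold. The other 4 pore genes were below the signal limit. Of these, the T-type gene Cacna1g read 71.2, 64.7, 131 and 32.5 units, and the R-type gene Cacna1e 29.7, 54.2, 77.3 and 73.8 units in the brighter of its probe sets. Cacna1h, another T-type gene, was above the floor in sample 2 only, at 79.0 units. Cacna1s, the pore of the skeletal muscle channel, stayed between 56.9 and 74.95 units.

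Auxiliary calcium channel subunits held 2 of the 5 channel genes with a range of 2-fold or more. Of the 4 analysed, Cacna2d3 reached 1.89-fold, and in sample 4 all 4 lay below the average of samples 1 to 3. Cacna2d1, the subunit that gabapentin binds, gave 125, 122, 270.1 and 106 units, a mean of 156 ± 76.7 (SD, n = 4). Sample 3 stood above the other samples, which lay close together, and the range was 2.55-fold (adjusted p = 0.945, limma), or 1.35 log2 units, against 0.23 without sample 3. Cacng2 encodes stargazin, which brings AMPA receptors to synapses. Its signals were 229.9, 308, 413 and 197 units, 287 ± 96.0 (SD, n = 4), again highest in sample 3 and lowest in sample 4. The range of Cacng2 was 2.09-fold (adjusted p = 0.942, limma), and it fell just short of 2-fold with median scaling. It was 1.07 log2 units with all samples, 0.64 without sample 3 and 0.84 without sample 4. Cacna2d3, a further subunit of the Cacna2d family, gave 720.3, 827, 778 and 437 units. Samples 1 to 3 were close together, and sample 4 was lower by 0.83 log2 units than their mean. Cacnb2, a cytoplasmic subunit that carries the pore to the membrane, was steadier, at 516, 502, 408 and 434 units and a 1.26-fold range. Cacng1, a subunit of the skeletal muscle channel, was below the signal limit and at most 56.3 units.

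Taking pore and auxiliary subunits as 1 family, 3 of 7 analysed calcium channel genes spanned 2-fold, 1 of 3 pore and 2 of 4 auxiliary genes. Of the other 16 channel genes 2 did, beside 12.9% of all named genes analysed. These counts rest on few genes and their difference was not tested. Sample 4 was the lowest sample for 5 of the 7, beside 30.2% of all named genes. It was also the lowest for 4 of the 5 channel genes spanning 2-fold, where 35.9% of all named genes with such a range were lowest there. This sample had the highest ratio of 3' to 5' signal for 5 of 5 control transcripts, a measure that rises when RNA or its copy is less complete. For 1 of these transcripts, Tfrc, the deposited 5' signal was below the floor in 1 sample. The ratio for beta-actin was 2.03 in sample 4 and 1.51 to 1.84 in the others, and for Gapdh 1.15 against 0.864 to 0.981. Genes of the general neuron list, Snap25, Syt1, Syn2, Nefm, Map2 and Camk2a, were also low in sample 4. They lay below the average of samples 1 to 3 in 6 of 6 cases, with a median of -1.30 log2 units. Of all named genes, 52.2% lay above that average. In sample 1 the neuron genes lay above the other samples in 6 of 6 cases, with a median of 0.88 log2 units, against 51.3% of all named genes. The summed signal of the neuron genes was 9107 units in sample 4 and 11388 to 13426 units in samples 1 to 3. Genes of hippocampal fields were split in sample 4, where 3 of the 5 analysed lay above the other samples and the median was 0.29 log2 units. Neurod2 was at 909 units against 622 to 736 and Zbtb20 at 801 against 518 to 626. Wfs1 was lowest there, at 449 units against 539 to 725, and Calb1 was at 544 against 522 to 665. Slc32a1 of inhibitory neurons was high in samples 2 and 4, at 1074 and 1139 units, against 376 and 272 units in samples 1 and 3. The median of the inhibitory neuron list in sample 4 was -0.12 log2 units. The part of these differences in the channel values was not tested. In such bulk samples fewer cells of a type and less RNA per cell cannot be told apart.

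**Figure D2:**
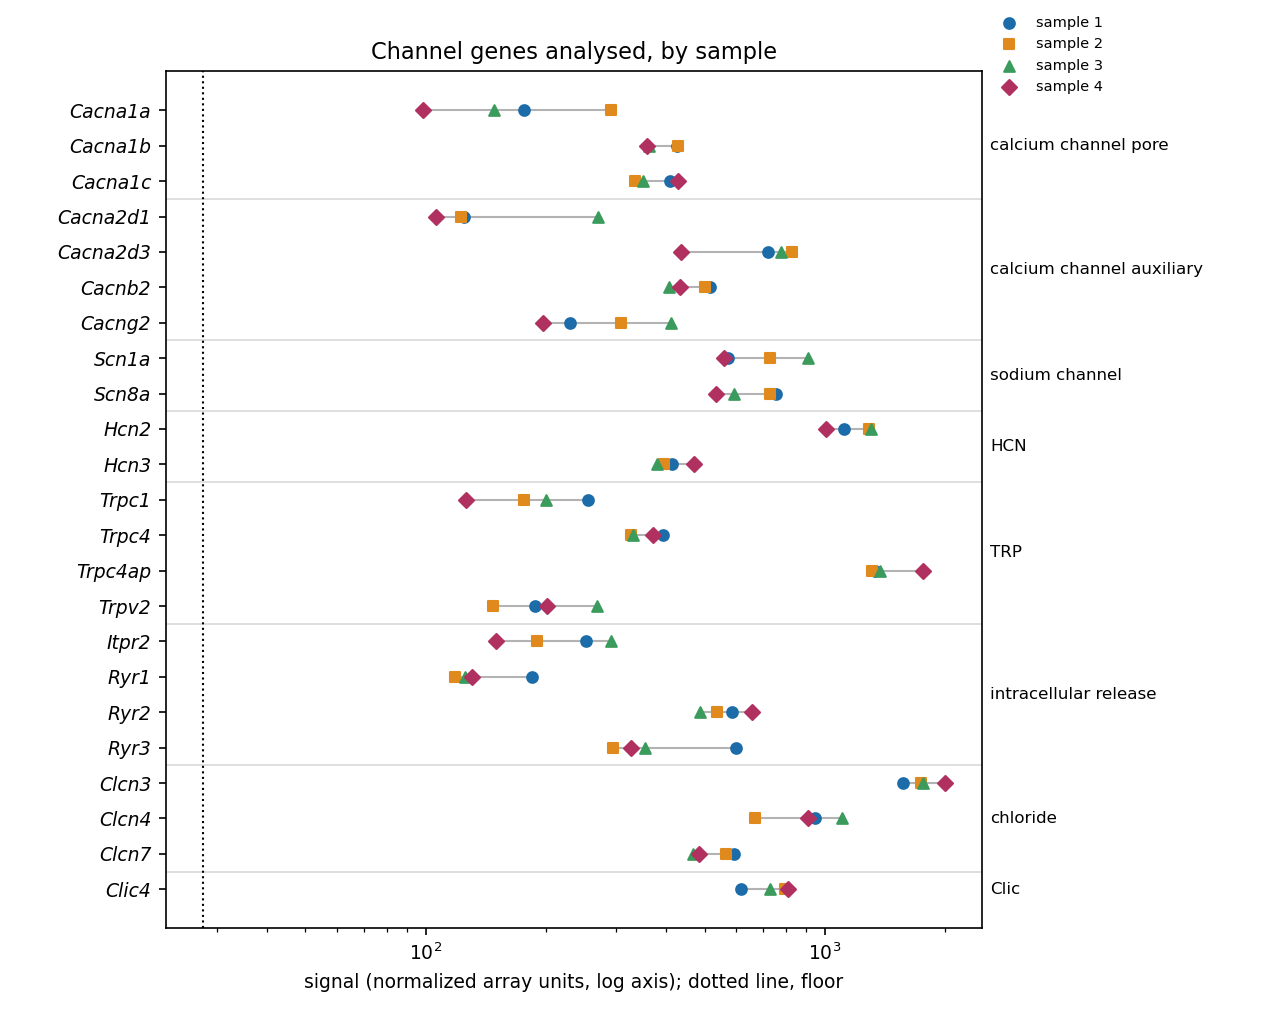
Signal of each of the 23 analysed channel genes in samples 1 to 4 (normalized array units, log axis), grouped by family; a grey line joins the lowest and highest sample and the dotted line marks the floor of 27.7 units. Cacna1a and Cacna2d1 have the longest lines, with sample 4 at their low end, and Cacna1b the shortest.

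Both sodium channel genes analysed spanned less than 2-fold. Scn8a, whose channel is dense at the axon initial segment, gave 756, 731, 591 and 533 units, a mean of 653 ± 108 (SD, n = 4). Samples 1 and 2 were higher than samples 3 and 4, with a range of 1.42-fold. Scn1a, prominent in fast-spiking interneurons, gave 571, 731, 909 and 560.2 units, highest in sample 3. Its lowest value was in sample 4, close to that of sample 1, and with the deposited values or median scaling sample 1 was the lowest. The second Scn1a probe set gave 199, 186, 319 and 220.3 units and was highest in the same sample. The remaining 4 sodium channel genes were below the signal limit. Scn7a, Scn9a and Scn10a, the last of these a channel of peripheral sensory neurons, were under the floor on all 4 arrays. Scn3a, best known from the developing brain, was above the floor in sample 3 only, at 33.5 units. A second Scn8a probe set stayed at or below 4.53 units, so that the probe sets of this gene did not read alike.

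Both HCN genes had ranges narrower than the 1.42-fold median of the channel genes analysed. Hcn2 gave 1115, 1293, 1309 and 1006 units, 1181 ± 146 (SD, n = 4), a 1.30-fold range with samples 2 and 3 above samples 1 and 4. Its second probe set gave 454, 403, 487 and 547 units and was highest in sample 4, where the first was lowest. Hcn3 gave 415, 396, 381 and 472 units, 416 ± 39.6 (SD, n = 4), with sample 4 highest and a 1.24-fold range.

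Of the 4 TRP genes analysed, only Trpc1 reached 2-fold, and it did not with a pseudocount in place of the floor or without sample 1 or sample 4. Trpc1 encodes a subunit of cation channels opened downstream of phospholipase C. Its signals were 255, 177, 201 and 126 units, 189.6 ± 53.5 (SD, n = 4), highest in sample 1 and lowest in sample 4, a 2.02-fold range (adjusted p = 0.994, limma). The second Trpc1 probe set, below the signal limit, gave 112, 50.4, 17.8 and 9.78 units, highest in the same sample and under the floor in samples 3 and 4, which have no order there. Trpc4, a related subunit, gave 394, 328, 331 and 372 units and spanned 1.20-fold. Trpv2, a cation channel gene also expressed in macrophages, gave 188, 148, 269 and 202 units, highest in sample 3 and lowest in sample 2. Trpc4ap gave 1333, 1315, 1372 and 1758 units, with samples 1 to 3 within a narrow band and sample 4 above them by 0.39 log2 units. Trpc5, Trpc6, Trpm1 and Trpm7 were below the signal limit. Trpm1, known from retinal bipolar cells and melanocytes, was above the floor on all 4 arrays, at 73.4 to 108 units. Trpm7, which joins a channel to a kinase, was above it in samples 2, 3 and 4.

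Genes of intracellular calcium release were read by their brightest probe sets and set against the average of the other samples. They were higher in sample 1 in 4 of 4 cases and lower in sample 2 in 4 of 4. Over all named genes these shares were 51.3% above in sample 1 and 50.7% above in sample 2. Dimmer probe sets departed from the pattern, with log2 deviations of 0.12 for Ryr3 in sample 2 and -0.72 for Itpr2 in sample 1. Ryr3, a ryanodine receptor found in the hippocampus, gave 601, 295, 354 and 327 units, 394 ± 139.8 (SD, n = 4). Sample 1 stood apart from the other samples by 0.89 log2 units, and the range was 2.04-fold (adjusted p = 0.921, limma), or 1.03 log2 units, against 0.26 without sample 1. The second Ryr3 probe set gave 299.6, 273, 303 and 177 units, with samples 1 to 3 close together and sample 4 low, so that the height of sample 1 was seen with 1 of 2 probe sets. Ryr2, the receptor of heart and brain, gave 586, 539, 488 and 658 units, highest in sample 4. Ryr1, best known from skeletal muscle, gave 185, 118, 126 and 131 units, highest in sample 1. Itpr2, an inositol trisphosphate receptor of astrocytes among other cells, gave 253, 190.3, 292 and 149.8 units, with samples 1 and 3 above samples 2 and 4. Another Itpr2 probe set, below the signal limit, ran the other way in samples 1 and 4, at 55.3, 49.2, 98.7 and 156 units. The remaining Itpr2 probe sets were at or below 37.2 units.

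Among chloride transporter genes, Clcn3 and Clcn7 spanned 1.27-fold each in their brightest probe sets and Clcn4 spanned 1.65-fold, against a median of 1.42-fold over all named genes. Clcn3, of endosomes and synaptic vesicles, gave 1569.9, 1747, 1761 and 1997 units, 1769 ± 175 (SD, n = 4), a 1.27-fold range with sample 4 highest. Clcn4, its close relative, read 946, 671, 1106 and 907 units in one probe set and 673, 447, 655 and 588 in the other, and both were lowest in sample 2. Clcn7, of lysosomes, gave 593, 567, 467 and 484 units. Its dimmer probe set gave 49.3, 125, 92.7 and 201 units, a 4.07-fold range with sample 1 lowest, whereas sample 1 was highest in the brighter one. The other 3 probe sets of Clcn3 read 372, 382, 547 and 623, then 336, 230.3, 244 and 241, then 204, 177, 353 and 295 units, with highest samples 4, 1 and 3. Clcn2 and Clcn5 were below the signal limit but above the floor on all 4 arrays, and Clcn1, the skeletal muscle channel, was above it on 3. Clic4, which despite its family name is mostly a soluble protein, gave 616, 794, 731 and 808 units, lowest in sample 1. Its other probe sets read 391, 623, 493 and 357 units and, in the last, 241, 371, 534 and 321 units, highest in samples 2 and 3. Clic3 was below the signal limit, at 31.3 to 82.4 units.

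For the 7 genes with several analysed probe sets, the probe sets shared their highest sample in 1 case, Scn1a, and their lowest sample in 1 case, Clcn4. Counted by probe set, 7 of 33 (21.2%) spanned at least 2-fold, against 14.4% of all probe sets analysed, and 0 of 33 had an unadjusted p under 0.05, against 5.86%. The 2 that joined the genes above were the dimmest analysed probe sets of Clcn7 and Clic4.

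**Figure D3:**
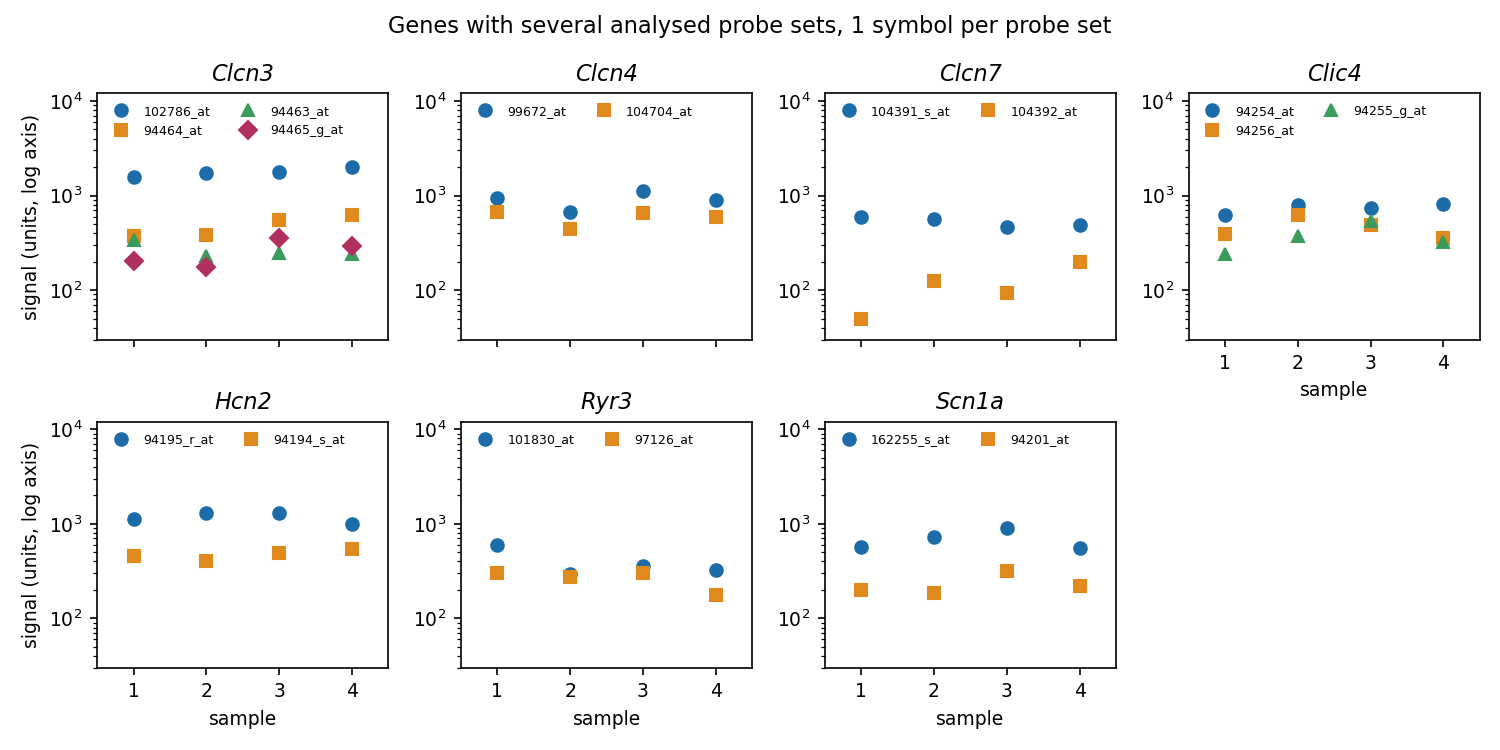
Signal by sample (normalized array units, log axis) for the 7 genes with several analysed probe sets, 1 symbol and colour per probe set. The Scn1a probe sets share their highest sample, 3, while those of Clcn7 run in opposite directions in sample 1.

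Across the 23 genes together, deviations of single samples were small. The median log2 deviation from the mean of the other samples was 0.12 in sample 1, -0.07 in sample 2, -0.08 in sample 3 and -0.16 in sample 4, where the medians over all named genes lay between 0.00 and 0.02. In sample 1, 15 of 23 genes were above the others (65.2%, against 51.3% of all named genes), and in sample 4, 9 of 23 were (39.1%, against 52.2%). Sample 4 was the lowest sample for 10 of 23 genes (43.5%, against 30.2%) and sample 1 for 2 (8.70%, against 23.0%). The highest sample was the same for 23 of 23 genes with the deposited values and for 22 with median scaling, and the lowest for 22 and 20.

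**Figure D4:**
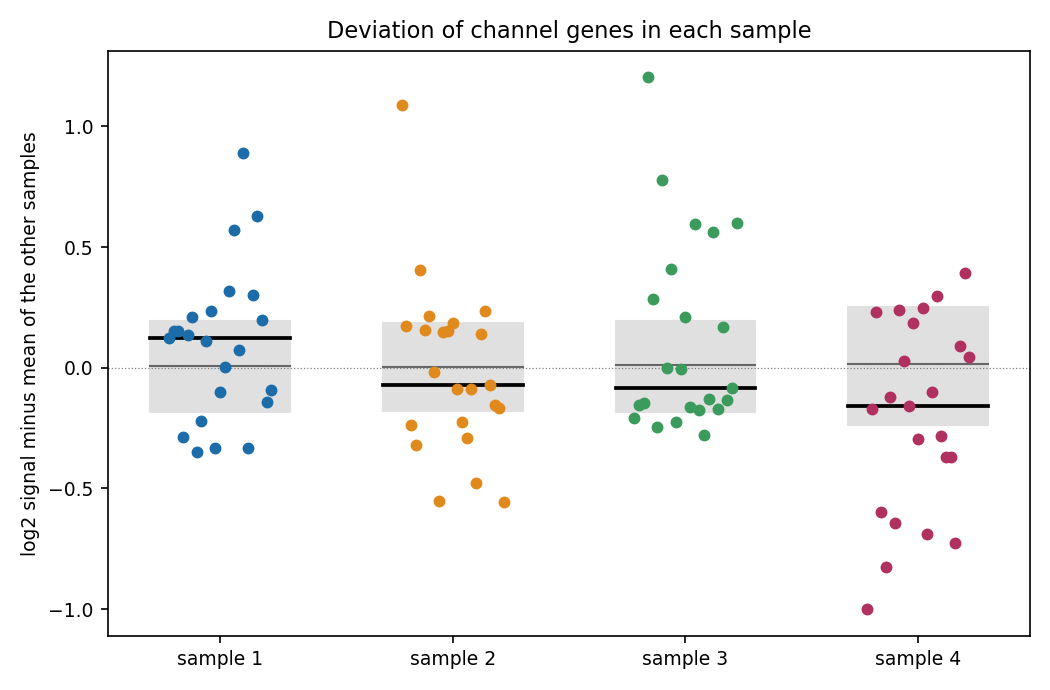
Log2 signal minus the mean of the other samples for the 23 channel genes (points, alphabetical from left to right within a sample), with their median (black line) and the median and middle 50% of all named genes analysed (grey line and box). The channel medians run from -0.16 in sample 4 to 0.12 in sample 1.

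Genes of proteins that anchor, regulate or work beside these channels were read from a list fixed with earlier results of these data known. The partner list held anchoring, regulatory, calcium pump and chloride transporter genes, of which 34 of 56 were on the array and 25 were analysed. None passed the variance test (limma, Benjamini-Hochberg adjustment), 3 had an unadjusted p under 0.05 (against 5.19% of all named genes), and 3 spanned at least 2-fold, a share of 12.0% that is near the 12.9% of all named genes. The median range of the partners was 1.33-fold. Camk2a, a kinase subunit that acts on calcium channels, gave 357, 629.7, 321 and 29.4 units, so that sample 4 lay near the floor. The sodium channel partner Fgf13 read 364, 261, 249 and 116 units, and the calcium pump gene Atp2b2 231, 158, 385 and 109 units. These 3 genes, the partners that spanned 2-fold, were lowest in sample 4, as were 35.9% of all named genes with such a range. Camk2a is also on the neuron list. Of all 25 analysed partners, 14 lay above the other samples in sample 4, against 52.2% of all named genes. Their median there was 0.05 log2 units. Ank3, which anchors sodium channels at the axon initial segment, ran from 874 units in sample 1 to 1333 units in sample 4. Jph3, which ties surface channels to ryanodine receptors, gave 2145, 2277, 2029.5 and 3208 units, highest in sample 4. The calcium pump gene Atp2a2 and the ryanodine receptor partner Fkbp1a varied by 1.16-fold and 1.18-fold.

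The tissue label was checked against markers. Of 6 genes of hippocampal fields, Neurod2, Zbtb20, Calb1, Wfs1 and Dsp were analysed, with 0 spanning 2-fold, and Prox1 was below the signal limit. Of 5 skeletal muscle and 4 kidney markers, 0 were analysed, against 58.6% of all named genes. Their summed signals were 305 to 345 and 64.3 to 158 units over the samples. The muscle channel gene Ryr1 was analysed, however, and Cacna1s stayed above the floor. Among cerebellar markers, Pcp2 gave 140.1, 153, 401 and 135 units, highest in sample 3, and Zic1 107, 185, 182 and 353 units, highest in sample 4; 2 of 3 analysed spanned 2-fold, and Gabra6 stayed at or below 69.1 units. Of all named genes analysed, 12.9% spanned 2-fold. In the other lists, all of them short, the count was 1 of 3 analysed for inhibitory neurons, 2 of 4 for astrocytes and 1 of 4 for oligodendrocytes. It was 1 of 4 for microglia, 2 of 2 for vessels, 1 of 2 for choroid plexus, 1 of 3 for meninges and 1 of 2 for thalamus. Red blood cells had 3 of 3 and neurons 4 of 6. The part of these cell types in the channel values was not tested.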

How the data were processed

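Total RNA of 4 mouse hippocampus samples was read on 1 array each. The array design is Affymetrix MG_U74Av2, the platform of the probe annotation. The values deposited by the authors are intensities on a linear scale for 12488 probe sets, 66 of them controls. The software that made them is not given in the sources used here. The mean of each array without its lowest and highest 2% of probe sets was 250.1 units, so that arrays had been scaled before deposit. The number of arrays limits the precision.

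Controls were left out, quantile normalization was applied (limma 3.58.1, R 4.3.3), values under 27.7 units, the 25th percentile, were raised to it, and log2 was taken. A floor understates the range of dim genes. The 6211 of 12422 probe sets whose mean exceeded the median of all means were analysed. The annotation gave 1 symbol for 10833 probe sets, several for 396 and none for 1193. Symbols of 10817 were found in the RefSeq table through the Entrez identifier, and 0 channel symbols changed. Variances were tested against their intensity trend by an F test, one-sided (residual degrees of freedom 3, prior 5.20), with Benjamini-Hochberg adjustment over all analysed probe sets at 0.05. The test was checked on simulated data whose changes were larger than the range of any analysed channel gene in its brightest probe set. That check therefore does not show whether ranges as small as theirs would be found. The rule for named genes took every channel gene, with values for those analysed. Channel genes, partner and marker lists were chosen with earlier results of these data known. Alternatives covered the normalization, floor, signal filter, probe set choice, prior variance and leaving out each sample, and, chosen after seeing the data, leaving out Trpc4ap.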

Additional observations from a re-analysis of the deposited data

Results flagged for a closer look

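Among the 33 analysed channel probe sets, 2 (6.06%) had a sample set far apart from the other 3. That share is near the 1 in 20 or so that chance alone gives. The share over all analysed probe sets was not computed, so the 2 are listed as a description only. Trpc4ap was high in sample 4, with 0.852 of its whole log2 range between that sample and the next. The Clcn3 probe set with a mean of 263 units was high in sample 1, with a share of 0.841, while the other 3 probe sets of that gene were highest in samples 3 and 4.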

How the results depend on the processing

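No channel gene passed the variance test under any of the alternatives run, with 0 of 23 at an unadjusted p under 0.05 in the main analysis (limma) and at most 2 when 1 sample was left out. The number spanning 2-fold was 5, and became 3 with a pseudocount of 16 in place of the floor. It was 12 of 40 with no signal filter, where dim genes add ranges near the floor. Leaving out 1 sample gave 2 to 3, and the other alternatives gave 4 to 6. The share of all named genes also moved, from 12.9% to 10.1% with the pseudocount and to 21.7% with no signal filter. The median deviation in sample 3 went from -0.08 to 0.093 with the median over probe sets. The median range was 0.36 to 0.43 log2 units without 1 sample and 0.48 to 0.65 otherwise. Of 230 recomputed ranges of single genes, 213 moved by less than the SD between samples. This count overstates stability, since some ranges could not move. The 23 genes lay above the floor in all samples, so the lower floor and the missing filter left their ranges unchanged. The median over probe sets could not change genes with 1 analysed probe set. With no signal filter, many probe sets at the floor had no variance, so that the test says little there. Median scaling moved the median over all named genes to -0.09 in sample 2 and 0.11 in sample 4. No paired analysis was possible because the labels hold a single group. Signals near the floor cannot be told from background, which limits the genes under it in 1 or more samples.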
